A study of Homo sapiens with 4 samples.

Results

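Peaks called for the cytidine deaminase A3B (APOBEC3B) in OMM2.3 cells were described from the complete list that 1 A3B library gave against 1 IgG library. MACS2 called them at a p threshold of 0.05, and only 0.449% of them had a q-value of at most 0.05. All 56167 rows of that list were taken as members, out of 192845 peaks in the 2 lists of the study. OMM2.3 is a human uveal melanoma cell line. Chromatin was cross-linked with 1% formaldehyde, sonicated and precipitated with an A3B antibody (Abcam ab184990) in the group OMM2.3 A3B, and with normal rabbit IgG in the group OMM2.3 IgG. The cells of both groups were untreated as far as the labels give it, and both libraries came from the same line. The study held the same pair of libraries of 92.1, another uveal melanoma line, whose 136678 peaks serve here only for comparison. Each group was 1 library, so no value has a replicate check, no test was made, and all intervals are 95% intervals of counting error alone. Peak lists carry no expression values, so the identity of the line could not be checked against melanocyte markers.

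A3B is one of the APOBEC3 enzymes, which convert cytosine to uracil in single-stranded DNA, and it prefers a cytosine that follows a thymine. Single-stranded DNA is exposed at replication forks and on the displaced strand of R-loops, the structures in which a nascent RNA stays paired with its template. Stalled forks and unresolved R-loops are sources of replication stress, which is answered by the kinases ATR and CHK1.

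A set of sequences shows what kinds of DNA the peaks covered. The first pair are, by p-value, the strongest peak of the list and the strongest peak of its largest cluster, both in satellite DNA. Each is the plus strand of GRCh38 from 100 bases before to 100 bases after the summit, and capitals mark CATTC or its complement GAATG, the unit of the human satellites built of short simple repeats.
chr7:58797753-58797953: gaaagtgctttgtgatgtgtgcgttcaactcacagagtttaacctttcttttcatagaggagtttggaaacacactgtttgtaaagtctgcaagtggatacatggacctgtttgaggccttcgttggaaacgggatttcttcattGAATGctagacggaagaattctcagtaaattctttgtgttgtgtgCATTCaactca
chr4:49091984-49092184: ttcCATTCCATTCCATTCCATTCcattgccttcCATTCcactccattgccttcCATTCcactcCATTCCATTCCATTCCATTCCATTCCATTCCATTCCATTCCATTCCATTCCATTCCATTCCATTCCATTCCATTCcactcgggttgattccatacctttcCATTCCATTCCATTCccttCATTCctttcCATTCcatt
The chromosome 7 window lay in the block of alpha satellite at the centromere and held 2 copies of the unit, whereas the chromosome 4 window held 26. The next 3 windows are single-copy DNA without an annotated exon. The first pair of them were among the strongest such peaks of the list, and the third lay in an intron of TNRC6B, inside a cluster described below. Capitals mark TC and GA, the preferred A3B context on either strand.
chr2:30695514-30695714: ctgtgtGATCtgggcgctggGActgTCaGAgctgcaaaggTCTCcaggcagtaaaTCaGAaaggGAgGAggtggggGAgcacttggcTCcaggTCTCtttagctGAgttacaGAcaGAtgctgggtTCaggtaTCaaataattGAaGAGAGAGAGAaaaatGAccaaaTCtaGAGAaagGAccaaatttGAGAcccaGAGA
chr12:30876570-30876770: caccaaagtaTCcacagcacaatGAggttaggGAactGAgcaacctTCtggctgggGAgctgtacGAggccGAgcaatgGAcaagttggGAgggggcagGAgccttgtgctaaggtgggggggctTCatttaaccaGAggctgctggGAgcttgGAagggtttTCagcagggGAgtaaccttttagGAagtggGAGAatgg
chr22:40219016-40219216: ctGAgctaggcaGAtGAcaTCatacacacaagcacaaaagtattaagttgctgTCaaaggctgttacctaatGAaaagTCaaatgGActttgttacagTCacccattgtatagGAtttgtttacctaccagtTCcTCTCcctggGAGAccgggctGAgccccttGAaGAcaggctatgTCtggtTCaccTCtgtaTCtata
These windows held 35, 20 and 22 TC or GA dinucleotides. Over 42674 single-copy peaks outside the satellite blocks the mean was 24.7 a window at a GC content of 45.9%. All 14614243 windows of that length on the chromosomes had a mean of 23.9 at a GC content of 40.9%. At least 1 TC or GA was found in 100% of the peaks and in 99.97% of all windows, so holding the context did not set peaks apart.

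The peaks of highest confidence lay mostly in satellite DNA. A q-value of at most 0.05 was reached by 252 peaks, 235 of them on chromosomes 1 to 22, X and Y. Of these 235, 151 fell in the centromeric blocks of alpha satellite, which were found from the regular recurrence of that repeat unit. Another 50 lay outside the blocks and held at least 10 copies of CATTC or GAATG in such a window. A further 25 lay in other repeated sequence, in which at least 50% of the 32-base words recur in the genome, and 9 lay in single-copy DNA. Windows with at least 10 copies of the unit were 22.6% (17.7 to 28.3, Wilson) of the peaks at this q-value, 0.360% (0.314 to 0.414) of all 55486 peaks on these chromosomes and 0.0637% of all windows of the chromosomes. The strongest peak by p-value, on chromosome 7, rested on 170 A3B fragments against an IgG background of 59.0, with a −log10 p of 21.7. Its fold enrichment was 2.47 (A3B plus 1 over IgG plus 1, A3B scaled to the IgG library), below the median of 2.60 of all peaks. The chromosome 4 window rested on 53 fragments against 14.2, with a fold enrichment of 3.09 and a −log10 p of 10.8. The single-copy peak on chromosome 2 had 12 fragments against 1.37, and that on chromosome 12 had 11 against 1.12. In satellites the fragment numbers were therefore high but so was IgG, while single-copy peaks rested on few fragments over a low background. Reads from near-identical satellite copies cannot be assigned to 1 copy, so positions within these arrays are uncertain.

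Across the whole list the typical peak was small. The median peak was 254 bp wide (225 to 1153) and rested on 6 fragments, with quartiles of 5 and 7. The median fold enrichment was 2.60 and the median −log10 p was 2.34. The p-value was at most 0.001 for 17511 peaks (31.2%) and at most 1e-05 for 489. At 19764 peaks (35.2%) the IgG background stood at 1.05 fragments, the lowest value in the list. The sections that follow use 53117 peaks on 41 chromosome arms of at least 10 Mb, outside the centromeric blocks. The blocks held 2077 peaks in 72.5 Mb, or 28.6 per Mb, against 18.9 per Mb over all sequence outside gaps, and 94.7% of their peaks were in repeated sequence.

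Peak density differed widely between chromosome arms. Among the 39 autosomal arms the highest density was 55.9 peaks per Mb (52.9 to 58.9, exact Poisson) on 19p and the lowest was 2.37 (1.91 to 2.90) on 10p, a ratio of 23.6 (19.2 to 29.1). Arms 22q (47.6, 45.3 to 49.9), 20q (45.1, 42.9 to 47.5) and 20p (39.3, 36.9 to 41.8) followed 19p. At the lower end were 6q with 2.45 (2.16 to 2.75), 9p with 2.50 (2.05 to 3.02) and 16q with 3.49 (2.96 to 4.09) peaks per Mb. The intervals of 10p, 6q and 9p overlapped, so their order is not resolved. Arm 22q and arm 20q also overlapped, and 19p stood above both. Xq had 1.48 peaks per Mb (1.25 to 1.75), below every autosomal arm.

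**Figure D1:**
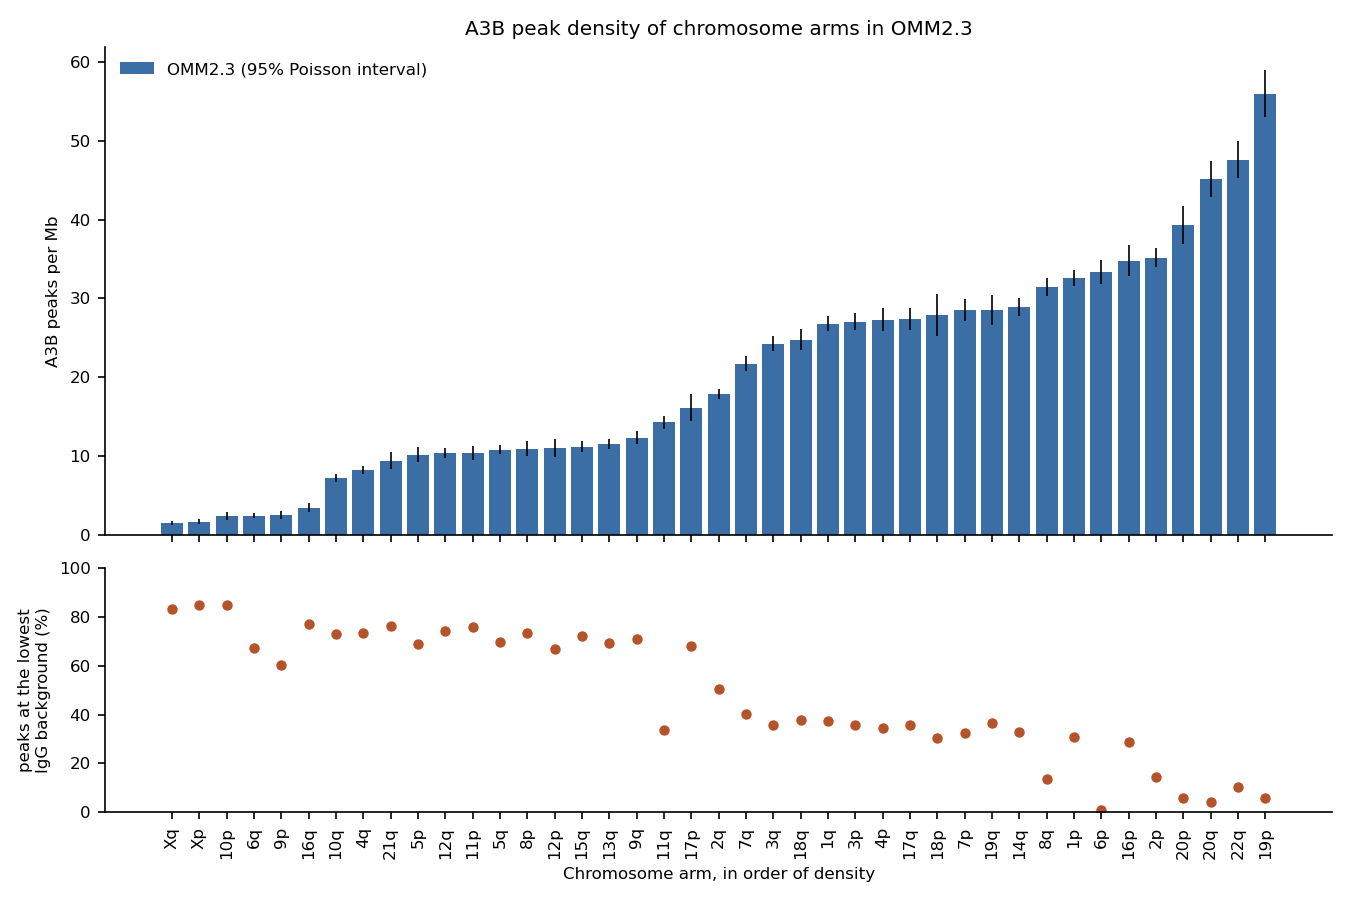
Peaks per Mb on each analysed arm in order of density (upper panel, bars with 95% exact Poisson intervals) and the percentage of the arm's peaks at the lowest IgG background (lower panel, points). Density runs from 1.48 on Xq to 55.9 on 19p, and the share at the lowest background is 60.2% or more on the 4 sparsest autosomal arms and 30.8% or less on the 9 densest.

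By ranges chosen after the values were seen, there were 4 autosomal arms under 4 peaks per Mb, 12 between 7.22 and 12.4, 14 between 14.3 and 28.9, and 9 between 31.5 and 55.9. The arms of 1 chromosome often differed. Of 17 chromosomes with both arms analysed, the short arm was denser on 9, the long arm on 6, and the interval of the ratio held 1 on 2. The ratio of short to long arm was 13.6 (12.0 to 15.5) on chromosome 6, 9.97 (8.43 to 11.8) on chromosome 16 and 3.30 (3.05 to 3.57) on chromosome 4. The long arm was denser by 4.94 times on chromosome 9, 3.05 times on chromosome 10 and 2.87 times on chromosome 8. In 92.1 the long arm of chromosome 9 was denser by 1.89 times and the ratio of short to long arm was 7.72 on chromosome 6, 0.970 on chromosome 16 and 1.07 on chromosome 4. Gain of 6p and 8q and loss of 6q are well known in uveal melanoma. The DNA copy number of the arms was not measured here, so a change in peaks per Mb of reference and in copies of the arm cannot be told apart.

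The IgG background moved with arm density. The share of peaks at its lowest level was 60.2% to 84.9% on the 4 sparsest autosomal arms, 66.8% to 76.1% on the next 12, 30.4% to 68.1% on the next 14 and 0.874% to 30.8% on the 9 densest. Across the 39 autosomal arms, density and this share had a Pearson r of −0.925 and a Spearman rho of −0.914, and density and median IgG background had r of 0.723 and rho of 0.940. The points share both libraries, and IgG enters the calling of every peak. Density was less closely related to GC content (r = 0.571, rho = 0.418), to protein-coding genes per Mb (0.480, 0.415) and to the density of 92.1 (0.403, 0.475). These are descriptions across arms, and the part of the IgG background in the density was not tested.

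Within arms the density often changed in steps. Each arm was divided where the Poisson likelihood of its peaks per Mb gained at least 20 log units, in segments of at least 5 Mb. Of the 39 autosomal arms, 19 formed 1 segment and 20 formed more, with segment means from 1.16 to 67.7 peaks per Mb. There were 13 places on 11 arms where neighbouring segments differed by 2 times or more. The sharpest was on 11q, where density fell from 28.9 to 1.56 peaks per Mb, an 18.5-fold step, at 87.1 Mb within TMEM135. On 6q it fell from 17.0 to 1.28 (13.3-fold) at 67.4 Mb, between EYS and ADGRB3, and the 130 peaks beyond were spread over 102.0 Mb. On 9p it rose from 1.16 over the outer 38.0 Mb to 12.4 next to the centromere (10.7-fold), at 38.85 Mb between FAM240B and CNTNAP3. Of all peaks of 9p, 64.8% were in repeated sequence, the highest share of the 39 autosomal arms, so their positions are uncertain. On 10q density rose from 2.02 to 13.9 (6.88-fold) at 95.1 Mb, where CYP2C8 lies. Positions within 2 log units of the best ran from 94.57 to 95.28 Mb, so this step is not resolved to a gene. Smaller steps lay on 7q, from 23.5 to 11 near PLXNA4 and from 11 to 3 nearer the telomere. On 13q density fell from 10.0 to 3.41, with TPP2 at the best position. Positions within 2 log units of the best ran from 102.6 to 103.2 Mb on 13q and from 132.7 to 133.4 Mb for the 7q step near PLXNA4. On 17q density rose from 11.8 to 31.3 between CDC27, a subunit of the anaphase-promoting complex, and MYL4.

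**Figure D2:**
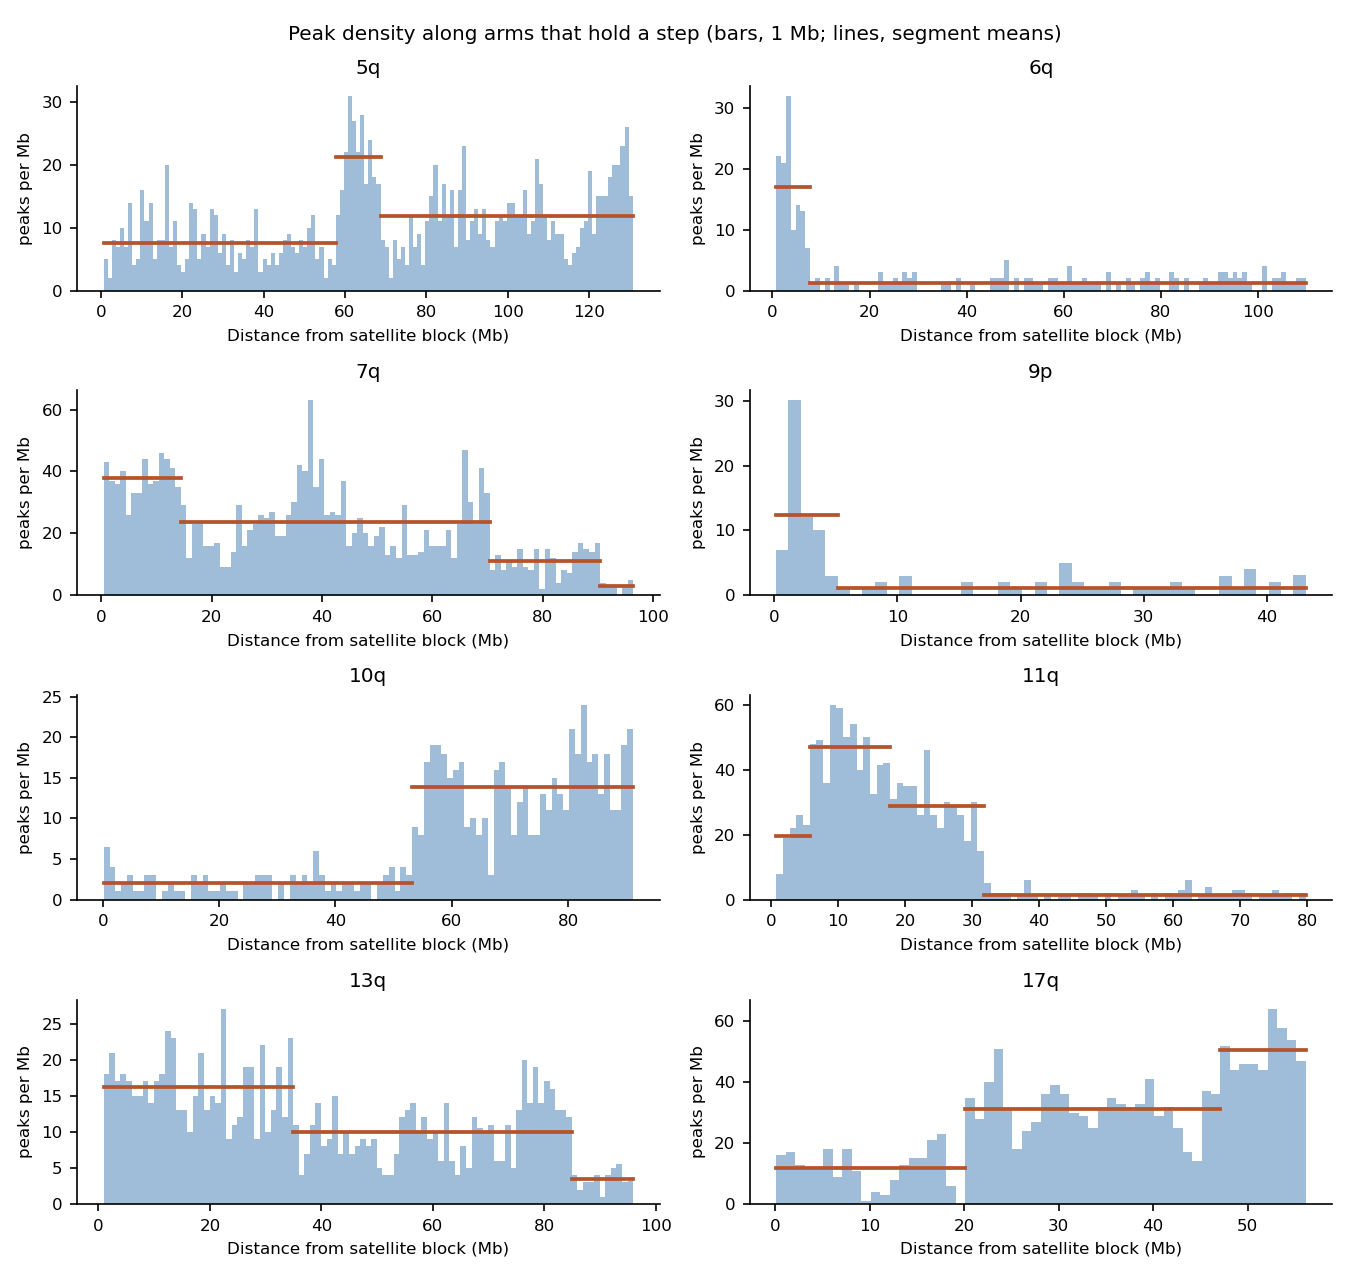
Peaks per Mb (bars of 1 Mb) and segment means (lines) against the distance from the centromeric satellite block in Mb, for the 8 arms with the largest steps. Density falls from 28.9 to 1.56 peaks per Mb on 11q and from 17.0 to 1.28 on 6q within the width of a few bars.

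The same places were looked up in IgG and in 92.1. At the 11q step the share of OMM2.3 peaks at the lowest IgG background went from 32.8% to 89.3%, and at the 6q step from 43.7% to 90.8%. At the 10q step it went from 84.1% to 73.0%. The GC content went from 40.9% to 40.6% on 11q, from 35.4% to 38.7% on 6q and from 40.6% to 43.4% on 10q, so on 6q it rose where density fell. In 92.1 the densities on either side of the 11q step were 55.7 and 24.5 peaks per Mb (2.27-fold), and on 9p they were 25.4 and 60.7 (2.39-fold). On 6q they were 16.6 and 12.3 and on 10q 26.5 and 30.05. At the other 11 places the folds of 92.1 were smaller. Density changed the same way as in OMM2.3 at 8 of them, by 1.06 to 1.36 times, and the opposite way at 3, by 1.08 to 1.25 times. The 3 were the step of 7q near PLXNA4 (67.0 to 72.1 peaks per Mb in 92.1), that of 13q (42.3 to 51.2) and that of 19q (54.8 to 68.3, where OMM2.3 fell from 43.2 to 18.5).

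Position within the arm and GC content had smaller effects. With each autosomal arm divided into 10 equal parts, the part next to the centromere held 1.09 times (1.07 to 1.12) the number at the arm mean, and the part next to the telomere 1.12 times (1.09 to 1.15). The sixth part held the least, 0.900 times (0.874 to 0.926). The telomeric part was above the arm mean on 24 of 39 arms and the centromeric part on 23, so neither was general. Once length was weighted by the peak density of its GC class, the telomeric part fell to 0.966, below the arm mean. When peaks in repeated sequence were left out, the centromeric part fell to 0.915, with the length of repeated sequence not removed. Density rose steadily with GC: windows of 100 kb in the lowest GC class (31.2% to 35.5%) held 10.1 peaks per Mb and 0.604 times (0.581 to 0.627) the number at the arm mean, and those in the highest class (48.3% to 63.9%) held 34.3 per Mb and 1.35 times (1.32 to 1.38). The ratio of the highest to the lowest class was 2.24 (2.14 to 2.33) in OMM2.3 and 1.39 in 92.1.

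**Figure D3:**
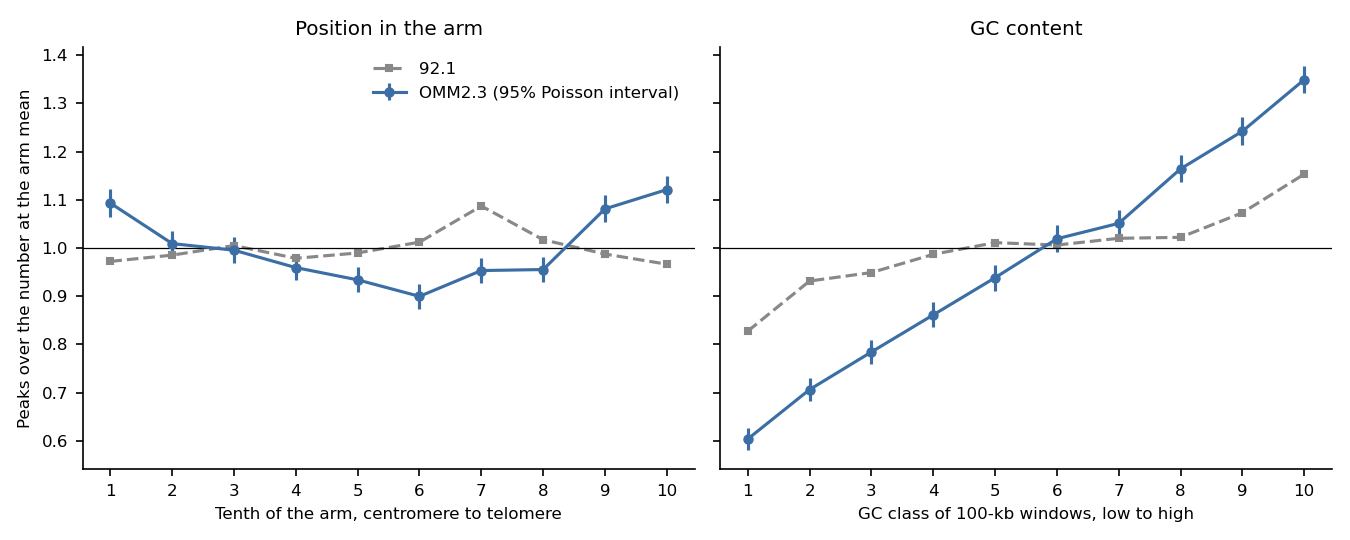
Ratio of peaks to the number at the arm mean by equal parts of the arm from centromere to telomere (left) and by GC class of 100-kb windows from low to high (right), for OMM2.3 (points with 95% Poisson intervals) and 92.1 (squares). The OMM2.3 ratio dips to 0.900 in the sixth part and rises from 0.604 to 1.35 with GC.

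Neighbouring peaks were a median of 24.7 kb apart (quartiles 9.36 and 56.6 kb), and the longest distance was 18.0 Mb. Observed spacings were compared with those of peaks placed independently at the density of their own 1 Mb, by an exponential formula. Spacings under 1 kb were fewer, 2.18% against 2.89% of 53076 pairs, a ratio of 0.754 (0.712 to 0.798, Wilson). Such short distances are limited by the width of the peaks themselves, of which the narrowest was 225 bp. Under 0.5 kb the share was 0.2675% against 1.461%, a larger shortage than under 1 kb. Every larger limit includes these pairs. Pairs from 0.5 to 1 kb, from 1 to 2 kb and from 2 to 5 kb were each above the share at local density. Spacings under 2 kb came to 0.976 times (0.942 to 1.01) the number at local density. Under 5 kb the ratio was 1.10 (1.08 to 1.12) and under 50 kb 1.01 (1.01 to 1.02). For limits from 2 kb to 200 kb the ratio lay between 0.976 and 1.10, with all shorter pairs included in each.

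**Figure D4:**
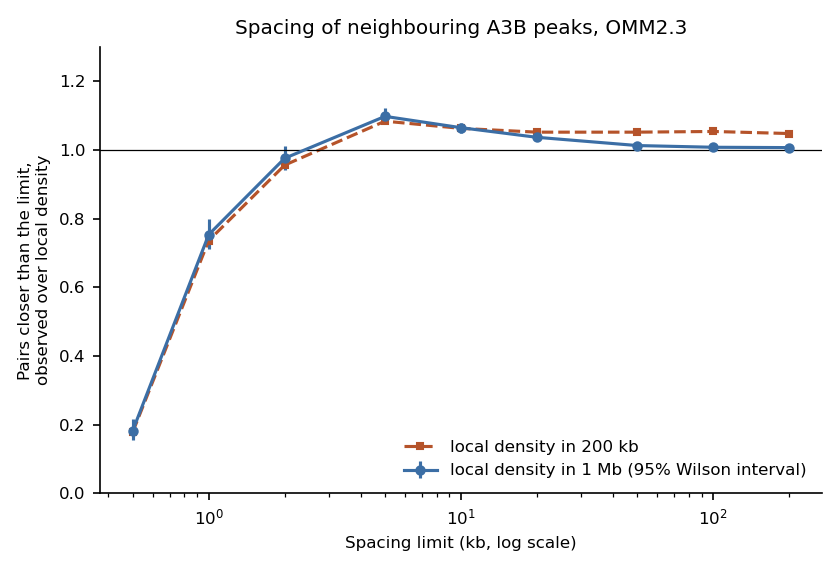
Pairs of neighbouring peaks closer than a limit, as a ratio to the share at local density, against the limit in kb on a log scale. With density taken in 1 Mb (points, 95% Wilson intervals) the ratio is 0.183 at 0.5 kb, 0.976 at 2 kb and 1.10 at 5 kb; squares show density taken in 200 kb.

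Clusters were defined as chains of at least 4 peaks, each within 5 kb of the next. There were 231 clusters with 993 peaks, or 1.87% of peaks, against 742 at the density of their own 1 Mb, a ratio of 1.34 (1.26 to 1.42). That interval counts each peak as independent, although the peaks of a cluster come together, so it is too narrow. With the density of their own 200 kb the ratio was 1.05. Both densities include the other peaks of the same cluster, which weigh more in 200 kb, so the lower ratio is in part built in. Peaks in clusters had a median fold enrichment of 2.60, the same as peaks that stood alone, and 22.2% against 19.4% of them were in repeated sequence. Their median GC content was 49.7% against 45.8%. The IgG background was 1.26 against 1.12 fragments. Clusters were found mainly on dense arms, with 25 on 20q, 24 on 1p, 23 on 2p, 22 on 19p and 19 each on 22q and 8q. A protein-coding gene was overlapped by 131 of the 231, and 3 held a peak with a q-value of at most 0.05. The share of other stretches of that size that overlap such a gene is not given here, so the 131 are no measure of enrichment.

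The largest cluster had 9 peaks in 16.8 kb (chr4:49091665-49108495), next to the centromere of chromosome 4, and 8 of the 9 were in repeated sequence. Its 9 summits held between 15 and 26 copies of CATTC or GAATG, and the second printed window is its strongest peak. Fold enrichment ran from 1.32 to 3.09, fragments from 33 to 101 and the IgG background from 11 to 52. In 92.1 this stretch held 1 peak. The next clusters, of 7 peaks each, were of another kind, with low fragment numbers and mostly single-copy DNA. One spanned 11.9 kb on 20q (chr20:50583823-50595707) over the 3′ end of RIPOR3 and part of PTPN1, a tyrosine phosphatase of insulin and cytokine signalling. Its peaks rested on 4 to 9 fragments with fold enrichment from 1.96 to 3.75. One spanned 14.0 kb on 22q (chr22:40216514-40230563) in TNRC6B, a scaffold of microRNA silencing, with 4 to 7 fragments a peak and fold enrichment from 2.07 to 3.10. The third spanned 15.9 kb on 6p (chr6:6534468-6550371) outside protein-coding genes, with 5 to 8 fragments a peak. TNRC6B as a whole held 12 peaks against 16.6 at the density of its flanks, so its peaks were gathered in 1 stretch and not numerous. Clusters of 6 peaks overlapped CDH4, a cadherin, PRAM1 and GP9, a platelet glycoprotein.

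Windows of 100 kb were then compared with the 1 Mb on each side. A window was called when it held at least 8 peaks and at least 2 times the number at the flanking density. Of 28345 windows 304 were called (1.07%), against 206 that peaks spread evenly over a window and its flanks would give by the binomial formula. Windows without any peak made up 31.8% of all. The called windows had a median GC content of 46.1%, against 39.8% for all windows, and 240 of them overlapped a protein-coding gene. The share of all windows that do so is not given here, so the 240 are no measure of enrichment. Windows and genes were ordered by the excess over the number at the flanking density divided by the square root of that number, which is not the order of the ratios. The largest excess was in the chromosome 4 satellites (chr4:49100001-49200000), with 18 peaks against 2.90, of which 16 were in repeated sequence. Next in that order came chr5:139700001-139800000 with 9 peaks against 1.40, none of them in repeated sequence. PSD2, which starts at 139795808, overlaps only the end of that window. The third, with ANKRD20A1 on 9q, held 8 peaks against 1.29, all in repeated sequence. On 19p a window with LYL1, TRMT1, NACC1, STX10 and IER2 held 17 peaks against 4.75. A window on 8p with PEBP4 held 8 against 1.5, and one on 8q with HSF1, DGAT1, SCRT1, SLC52A2, TMEM249, ENSG00000271698, FBXL6, ADCK5 and CPSF1 held 16 against 4.71. HSF1 is the master regulator of the heat shock response, and DGAT1 makes triglycerides. The window with NBR1, TMEM106A and CCDC200 on 17q held 8 peaks against 1.6, all 8 in repeated sequence. Not every gene of these windows held peaks. With 3 kb on either side, IER2, SCRT1, TMEM249, ENSG00000271698, NBR1 and TMEM106A held 0. HSF1 held 3 against 1.54 and DGAT1 4 against 0.954. In 92.1, 53.6% of the called windows were above their own flanking density, against 45.6% of all windows.

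Genes were treated and ordered in the same way. Each protein-coding gene was extended by 3 kb and called when it held at least 5 peaks and at least 2 times the number at the density of the 1 Mb on each side. Of 19964 genes 10037 held a peak, 1630 held 5 or more and 319 were called (1.6%), against 264.5 that an even spread over gene and flanks would give. The called genes had a median length of 71.5 kb and a median GC content of 46.7%, against 187 kb and 42.5% for all genes with 5 or more peaks. A count of 2 times the flanking number is harder to reach where that number is large, as in long genes. The shorter length is therefore in part built into the rule. In 92.1, 51.1% of the called genes were above their flanking density, against 49.5% of all genes with 5 or more OMM2.3 peaks. The lines shared 18 called genes, which were 5.64% of those of OMM2.3 and 3.19% of the 564 of 92.1. Over all genes tested, 2.83% were called in 92.1 and 1.6% in OMM2.3.

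The gene with the largest excess was NDRG4 (ENSG00000103034.15, chr16:58462846-58513628), a member of the NDRG family expressed in heart and brain, on the sparse arm 16q. It held 6 peaks against 0.227, a ratio of 26.4 (9.69 to 57.5). There were 5 peaks in introns and 1 in the 3 kb outside the gene, with fold enrichments of 3.02, 3.44, 2.51, 2.92, 2.18 and 3.44 from low to high coordinate, and 3 neighbouring ones had summits at 58486133, 58486659 and 58487254. The peaks were thus of ordinary strength, and the ratio rested on the low number in the flanks. Intervals of gene ratios here and below take the number at the flanking density as exact, so they are too narrow. Genes named for their excess or deficit were picked as extremes among 19964, for which the intervals make no allowance. GRXCR2, a gene of the hair bundle of the inner ear on 5q, held 5 intronic peaks against 0.465, with fold enrichments of 3.44, 2.18, 3.44, 2.60 and 2.18, and 2 of the 5 were in repeated sequence. SIGLEC1, the sialic acid receptor of macrophages on 20p, held 8 peaks against 1.31 (ratio 6.09, 2.63 to 12.0), 2 of them in exons and 5 in introns. Their fold enrichments lay between 1.90 and 3.26 on 4 to 9 fragments.

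The others of the 15 genes with the largest excess held between 5 and 17 peaks. RIPOR3 on 20q held 17 peaks against 6.02 (2.82, 1.65 to 4.52), 13 of them in introns and 3 in exons, with fold enrichments from 1.96 to 3.75, and it carried the cluster described above. PLXNA1, a semaphorin co-receptor on 3q, held 9 against 2.09 (4.30, 1.97 to 8.16), with fold enrichments from 2.2 to 3.29. HHIPL1 on 14q held 7 against 1.47, with fold enrichments from 2.36 to 3.44. UMODL1 held 6 against 0.951, ELOVL7, an elongase of very long fatty acids, 6 against 1.03, and EHD4, a protein of endosomal recycling, 5 against 0.826. RHBG, an ammonium transporter, held 5 against 0.858. None of these peaks had a q-value of at most 0.05. Apart from RIPOR3, these genes were called from 5 to 9 peaks each.

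Repeated sequence bore on some of the others. DDX11, a helicase of sister chromatid cohesion and of replication fork protection, held 5 peaks against 0.628 with 4 of them in repeated sequence, and near-identical copies of the gene exist elsewhere in the genome. All 8 peaks of CCDC200 (8 against 1.51) were in repeated sequence, as were 5 of the 6 of TMEM192 (6 against 1.08) and 3 of the 5 of ODF3L2 (5 against 0.781). DEFB110, a beta-defensin, held 5 peaks against 0.585, with 1 in repeated sequence. The counts at such genes are uncertain, because reads of near-identical copies can be placed at either. Of the 15 genes with the largest excess, 9 were still called with single-copy peaks alone, 11 with the gene body without its 3 kb on either side, 1 with peaks of p at most 0.001 and 0 with peaks of p at most 1e-05 or of q at most 0.05.

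**Figure D5:**
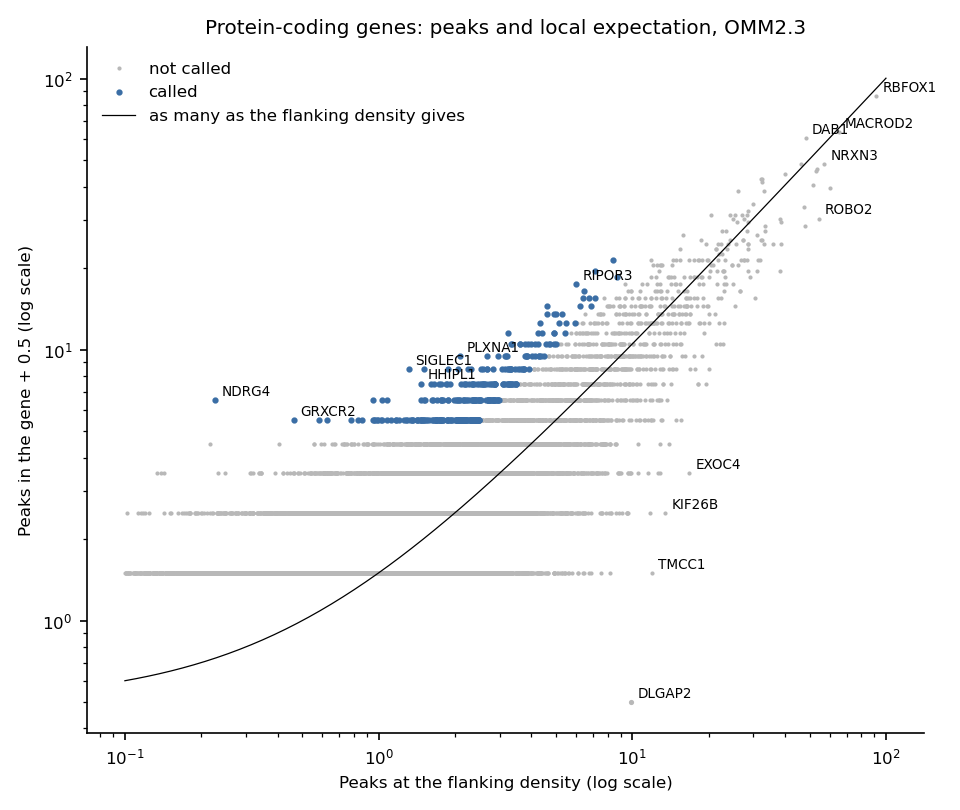
Peaks in each protein-coding gene (plus 0.5) against the number at the density of its flanks, both on log scales. Genes without a peak are left out except DLGAP2, blue points are the 319 called genes, and the line marks equality; RBFOX1 lies near the line at 86 peaks and DLGAP2 far under it at 0.

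The genes with most peaks were very long and close to their flanks. RBFOX1, a neuronal splicing regulator of 2474 kb, held 86 peaks against 91.7 (0.937, 0.750 to 1.16). MACROD2, an ADP-ribose hydrolase, held 63 against 65.0, DAB1, an adaptor of reelin signalling, 60 against 48.3, CAMTA1, a transcription factor, 48 against 46.1, and NRXN3, a synaptic adhesion protein, 48 against 57.1. The intervals of all 5 ratios held 1, so no departure from the surrounding density was seen at these counts.

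At the other end of that order, the largest deficit over the square root of the number at the flanking density was in EXOC4, a subunit of the exocyst on 7q, with 3 against 16.8 (0.179, 0.0368 to 0.522). ROBO2, an axon guidance receptor on 3p, held 30 against 54.2 (0.553, 0.373 to 0.790). TMCC1 held 1 against 12.0, DLGAP2, a protein of the postsynaptic density on 8p, 0 against 9.92, and KIF26B, a kinesin, 2 against 13.4, and the ratios of these 3 were lower than that of EXOC4. EXOC4 (chr7:133253073-134066589) lies directly beyond the step of 7q at 132.7 Mb, so 1 of its flanks lay in the denser segment. In 92.1 the ratios of EXOC4, ROBO2, TMCC1, DLGAP2 and KIF26B were 0.744, 0.520, 0.999, 0.381 and 0.460.

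Genes of DNA replication were counted from 3 lists. Origin licensing and firing factors held 32 peaks against 33.0 (0.970, 0.663 to 1.37) over 29 genes. Fork polymerases with their clamp, clamp loader, RPA and other fork proteins held 42 against 44.8 (0.937, 0.675 to 1.27) over 26 genes. The ATR and CHK1 checkpoint held 13 against 14.3 (0.907, 0.483 to 1.55) over 12 genes. All protein-coding genes together came to 0.955 (0.944 to 0.966). The intervals of the 3 lists held both 1 and that value. The median ratio was 0 for licensing, 0.757 for fork factors and 0.248 for the checkpoint, against 0.266 for all protein-coding genes. Of these 67 genes, 3 were called (4.48%), against 1.6% of all protein-coding genes. CDC45, a part of the replicative helicase on 22q, held 7 peaks against 2.89 (2.42, 0.974 to 4.99), with fold enrichments from 1.77 to 2.66. WDHD1, which links that helicase to DNA polymerase alpha, held 7 against 2.87 (2.44, 0.980 to 5.02), with fold enrichments from 1.91 to 3.44. CDC25B, a phosphatase that activates cyclin-dependent kinases, held 5 against 1.12 (4.48, 1.46 to 10.5). The highest −log10 p of a CDC45 peak was 2.37. In 92.1 the ratios of CDC45, WDHD1 and CDC25B were 0.327, 0.86 and 1.25. TOPBP1, an activator of ATR, held 3 against 1.58, and CLSPN, the adaptor between ATR and CHK1, 4 against 2.23. TOPBP1 was counted with the licensing factors and CLSPN with the fork factors, so neither enters the checkpoint total. PRIM2, the large subunit of primase, held 13 against 10.5 and POLD3 5 against 6.53. ATR itself held 2 against 2.99 and ATRIP, its partner, 2 against 1.25. PCNA, CHEK1, WEE1, MCM2 and MCM7 held none, with 0.751, 0.171, 0.297, 1.32 and 0.785 at the flanking density.

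Gene families that lie in clusters were counted next, beside the 0.955 of all protein-coding genes. The clustered protocadherins, neuronal adhesion proteins, held 28 peaks against 64.6 (0.434, 0.288 to 0.627). Their transcripts overlap, so 1 peak can be counted for several of them and the interval is too narrow; PCDHA1, PCDHA10 and PCDHA11 each held 2. Olfactory receptors held 76 against 95.4 (0.797, 0.628 to 0.997), an interval that held the value of all genes, led by OR1F1 and OR4N2 with 5 each and OR1I1 with 4. Zinc finger genes held 663 against 725 (0.915, 0.847 to 0.987), an interval that also held that value, with 24 peaks in ZNF536, 21 in ZNF385D and 9 in ZNF704. Of the 516, 10 were called (1.94%), against 1.6% of all protein-coding genes. Families of segmental duplications (NBPF, NPIP, GOLGA6, GOLGA8, TBC1D3, USP17L, SPATA31, ANKRD20A, POTE, FAM90A) held 131 against 92.5 (1.42, 1.18 to 1.68), and 5 of 146 were called (3.42%), against 1.6% of all protein-coding genes. NPIPB3, POTEM and NBPF26 led them with 7 peaks each, all in repeated sequence. Histone genes (28 against 26.9), keratins (17 against 15.5), keratin-associated proteins (7 against 9.84), HOX genes (9 against 13.4) and ribosomal protein genes (39 against 32.3) had intervals that held 1. KRT16 held 3 peaks, RPL7L1, RPL36 and RPL39L 4 each, and HOXA9, HOXA10, H2BC1, H2AC6, H2BC18 and KRT8 2 each.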

How the data were processed

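Chromatin immunoprecipitation sequencing was performed with an A3B antibody and with normal rabbit IgG in OMM2.3 and 92.1 cells, 4 samples in 4 groups of 1 library. The authors checked reads with FastQC 0.11.9, aligned them to GRCh38 with Bowtie2 2.2.5, took out PCR duplicates (Sambamba) and ran MACS2 2.2.7.1 with a p threshold of 0.05, using the IgG library of the same line as control. The deposited score is 10 times the −log10 p of a peak. The deposited fold enrichment is the ratio of scaled A3B fragments to the local IgG background at the summit, with 1 added to each. Both the −log10 p-value and the −log10 q-value are as deposited. Filters on mapping quality were not given in the sources used here.

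Fragment numbers and IgG background were recovered by inverting how MACS2 computes fold enrichment and −log10 p, at a scaling of 0.867 and within 0.002 of the −log10 p, for 99.99% of peaks. Library totals are unknown. Peaks were placed by their summits on GRCh38 and GENCODE 44, and lengths exclude gaps. Expectations came from the density of the arm, of 1 Mb or of the flanks (1 Mb on each side, at least 0.5 Mb in the same arm), by formula and without random placement. Chromosome Y was left out of arms, windows and genes. The formulas and the segmentation were tested on simulated peaks. Named genes were the 15 called with the largest excess over the root of the expectation, the 5 with most peaks, the 5 lowest, up to 3 with most peaks of each gene list, and those in the 10 windows and 10 clusters with the largest excess or most peaks; other genes of the 3 replication lists and of steps were named after their values were seen. The members and lists were chosen with earlier results of these data known. Density steps and GC-weighted length were added after the data were seen. Intervals are exact Poisson or Wilson, and those of ratios of densities are from the normal approximation of their logarithm. Python 3.11.15, numpy 2.4.6, scipy 1.17.1, pandas 2.3.3, numba and matplotlib 3.10.9 were used.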

Additional observations from a re-analysis of the deposited data

Results flagged for a closer look

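Densities of short and long arms went opposite ways in the 2 lines on 4 chromosomes, with intervals of counting error on either side of 1. The ratio of short to long arm was 1.22 (1.16 to 1.28) in OMM2.3 and 0.329 (0.316 to 0.342) in 92.1 on chromosome 1. It was 1.12 (1.06 to 1.18) and 0.536 (0.509 to 0.564) on chromosome 3, and 1.31 (1.23 to 1.40) and 0.793 (0.759 to 0.828) on chromosome 7. On chromosome 11 it was 0.728 (0.656 to 0.807) and 1.38 (1.31 to 1.46). With 1 library per group these differences were not tested.

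A signal was also present in sequence that the comparisons leave out. Unplaced and unlocalised sequences held 435 OMM2.3 peaks on 72 sequences, 17 of them (3.91%) with a q-value of at most 0.05. Their median IgG background was 2.48 fragments, their median fragment number was 9, and 80.2% lay in repeated sequence.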

How the results depend on the processing

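No paired analysis was possible because there was a single library in every group, and for the same reason no replicate could be left out. With peaks of p at most 0.001 the arm density ratio was 15.3, the GC class ratio 2.10, the spacing ratio under 2 kb 1.19, the clustered peaks ratio 3.71 (28 peaks in 6 clusters, 14 of them in repeated sequence), with 2 windows, 7 density steps and 68 genes called, fewer than the 76.2 genes by formula; 15 of the 68 genes were among the 319. At p at most 1e-05 the centromeric part ratio was 4.04, the GC class ratio 4.12, the spacing ratio 5.94 and the clustered peaks ratio 61.1, with 0 windows and 0 genes called. At q at most 0.05 the telomeric and centromeric part ratios were 1.43 and 5.48, the spacing ratio 11.8 and the clustered peaks ratio 0. No windows or genes were called there, and no arm or GC ratio could be given where an arm or class held 0 peaks. The ratios at these 2 limits rest on few peaks and have no intervals. The list held 489 peaks at p at most 1e-05 and 235 on the chromosomes at q at most 0.05. Of the 235, 151 lay in the satellite blocks, which the arms leave out. With single-copy peaks alone the arm density ratio was 48.6, the telomeric part ratio 1.18 and the centromeric part ratio 0.915, reversed; repeated sequence was not taken out of the lengths. With GC-weighted length the telomeric part ratio reversed to 0.966. Other definitions gave a GC class ratio of 2.09 in 1-Mb windows, spacing ratios of 0.754 under 1 kb and 1.07 under 10 kb, clustered peaks ratios of 1.20 and 1.19 for links of 2 and 10 kb and 1.05 at 200-kb density, 97 windows of at least 10 peaks (53 by formula), 85 genes at 3 times (68 by formula) and 7 density steps at a gain of 40. Genes called with flanks of 0.5 Mb were 318 against 294 by formula. Of the 15 genes with the largest excess, 14 held 0 peaks at p at most 1e-05 and all 15 at q at most 0.05; a ratio existed only where the flanks held a peak, which gave DDX11 a reversal to 0 at both. CCDC200 reversed to 0 with single-copy peaks and RHBG to 0 at p at most 0.001. Outside its interval, DDX11 moved from 7.96 to 1.75 and TMEM192 from 5.56 to 1.26 with single-copy peaks. At p at most 0.001 SIGLEC1 moved from 6.09 to 12.7, ELOVL7 from 5.80 to 13.5, HHIPL1 from 4.76 to 10.3, CAMTA1 from 1.04 to 0.757 and TMCC1 from 0.0836 to 0. The other 25 values over all peaks, windows and genes and the other 141 gene ratios moved within their interval or, for counts, by less than 1.5 times. The cause of these changes was not tested. Most peaks rest on 5 to 7 fragments, which limits what a single gene or window can show.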

Other observations

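Over 2665 windows of 1 Mb on autosomes, peak densities of OMM2.3 and 92.1 had a Spearman rho of 0.395 and a Pearson r of 0.374. After division by the mean of each arm, rho was 0.318 and r 0.346. The windows of 1 line share its libraries, and density rises with GC content in both lists. Alternate haplotypes held 246 OMM2.3 peaks on 82 sequences, none of them with a q-value of at most 0.05.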
